A study of Mus musculus with 25 samples.

Results

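Muscle protein breakdown in atrophy runs largely through ubiquitin ligases of the muscle fibre and the factors that switch them on and off, and 10 genes of this system were followed in the gastrocnemius of ageing SAMP8 mice, a senescence-accelerated strain. The members were chosen by name, with earlier results of these data known. They were the ubiquitin ligase genes Trim63 (MuRF1), Fbxo32 (atrogin-1), Fbxo30 (MUSA1) and Fbxo31, the transcription factor genes Foxo1 and Foxo3, the growth inhibitor myostatin (Mstn) and its receptor Acvr2b, the lysosomal protease gene Ctsl and the translation repressor gene Eif4ebp2. All 10 were among the 8829 genes of the deposited table. QuantSeq, which reads the 3′ ends of polyadenylated messenger RNA, had been run on 1 library from each of 25 male mice. Vehicle (corn oil, by mouth) was given to 11 mice (control), and thymol, a phenolic monoterpene of thyme, in the same oil at 20 mg per kg per day to 14 mice, in both groups from 8 months of age for 3 months. All mice were of the same strain and sex, so no mouse without accelerated senescence and no younger mouse entered the comparison. Mice are named by the number in their label, as in control 19.

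In a fibre, FoxO factors that are not phosphorylated by Akt enter the nucleus and raise transcription of Trim63 and Fbxo32, whose products tag sarcomere and regulatory proteins for the proteasome. Glucocorticoids act on the same genes together with FoxO. Myostatin, secreted by the fibres themselves, binds the activin receptor Acvr2b and signals through Smad2 and Smad3 to restrain muscle growth, while the opposing bone morphogenetic protein branch lowers Fbxo30. Cathepsin L, the product of Ctsl, degrades proteins in the lysosome, and 4E-BP2, the product of Eif4ebp2, holds back cap-dependent translation when mTORC1 is low.

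Reads per library on the genes of the table ranged from 4463818 to 9463418 with a median of 7503259, and their log2 number did not differ detectably between thymol and control (permutation p = 0.314, two-sided, 100000 permutations of mice). Markers of muscle fibres were all measured (12 of 12) and summed to 127861 to 168107 CPM (reads scaled to a library of fixed size) in control and 128801 to 173049 CPM in thymol. Of the markers of other cell types, 13 of 18 leukocyte genes were in the table without Ptprc and Adgre1, and 4 of 8 satellite cell genes without Pax7 and Myf5. Mice control 18, control 19 and thymol 20 lay farthest out on the leading principal components, and values without them are given where they matter. Control 18 had the highest summed fibroblast markers (4981 CPM) and leukocyte markers (631 CPM), control 19 the highest glucocorticoid-responsive genes (3892 CPM) and adipocyte markers (6040 CPM), and thymol 20 the lowest slow fibre markers (492 CPM). In whole muscle, fewer cells of a type and less RNA per cell cannot be told apart.

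Fbxo32 was the most abundant of the 10 transcripts. Its mean was 8.57 on the log2 CPM scale, higher than 98.1% of the genes in the table when ranked by mean level, and Trim63 (7.94) and Eif4ebp2 (7.80) followed at percentiles 96.2 and 95.8. Fbxo31 had a mean of 6.16, Ctsl of 5.32, Foxo1 of 4.87, Mstn of 4.87, Acvr2b of 4.26, Foxo3 of 4.04 and Fbxo30 of 2.67. Because reads come from the 3′ end, these levels are not scaled by transcript length and an effect of how well each 3′ end is captured was not tested. Within each mouse the order was stable at the top and bottom: Fbxo32 exceeded Trim63 in 25 of 25 mice, Eif4ebp2 exceeded Fbxo31 in 25, Fbxo31 exceeded Ctsl in 25 and Foxo3 exceeded Fbxo30 in 25. Trim63 was above Eif4ebp2 in 20 of 25 mice, and Ctsl above Foxo1 in 23. Foxo1 was above Mstn in only 10 of 25 mice, with a mean difference of 0.01 and an SD of 0.78 (log2), so that neither gene ranked above the other beyond the spread between mice. Acvr2b was above Foxo3 in 18 mice, and Mstn above Acvr2b in 22.

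The 10 genes differed widely in how much they varied from mouse to mouse. Mstn and Foxo1 were the most variable, with a pooled within-group SD of 0.47 and 0.43 (log2), which placed them at percentiles 88.1 and 83.2 of all genes by SD. From the lowest to the highest mouse, Foxo1 spanned 4.33-fold and Mstn 3.80-fold. Fbxo31 (SD 0.12, percentile 2.42) and Eif4ebp2 (SD 0.15, percentile 8.85) were among the steadiest genes of the muscle, and Trim63 (SD 0.19, percentile 20.5) varied less than most genes although it is widely used as an atrophy marker. Fbxo32 (0.28), Ctsl (0.27), Foxo3 (0.25), Acvr2b (0.32) and Fbxo30 (0.33) lay between. Over the members the median SD was 0.28, and over all genes it was 0.28. These percentiles are over genes of all levels, and genes of like level were not compared. The error of counting alone, computed from the reads of each gene, made up 0.963% of the variance of Fbxo32 (median 2891 reads per mouse), 3.43% for Trim63 (1881 reads), 4.66% for Mstn (217 reads) and 5.51% for Foxo1 (215 reads). It made up 44.0% for Fbxo30, with a median of 45 reads, and about as much for Fbxo31 (28.5%, 553 reads) as for Foxo3 (28.4%, 123 reads). Reads were amplified by PCR, and this share covers counting error only.

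**Figure D1:**
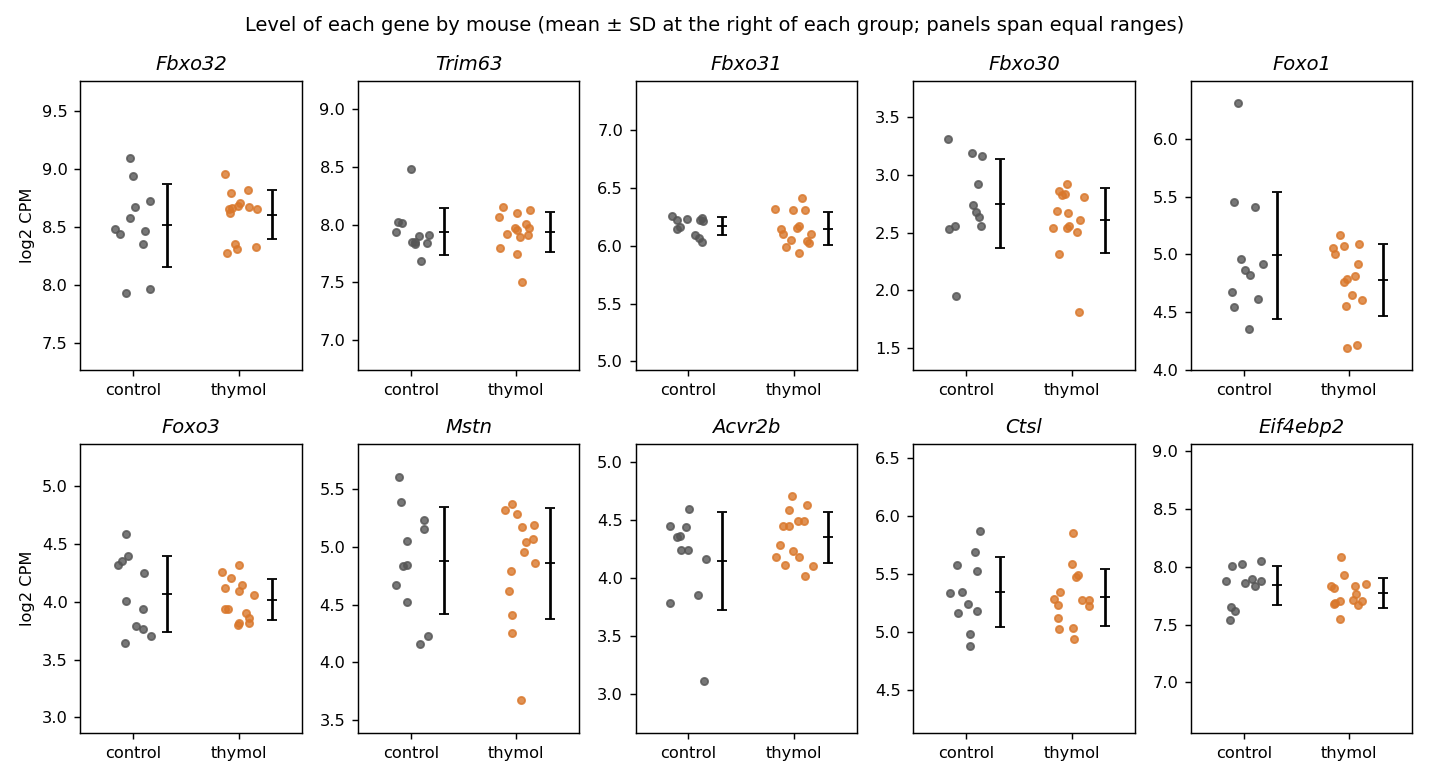
Level of each of the 10 genes in log2 CPM (vertical axis) in control (grey, n = 11) and thymol (orange, n = 14) mice, with each point 1 mouse and the bar at its right the mean ± SD. All panels span the same range of log2 CPM. The groups overlap in every panel, and single mice stand apart for Foxo1 (control 19 at 6.31), Acvr2b (control 31 at 3.11) and Mstn (thymol 6 at 3.68).

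Thymol was compared with vehicle to ask whether the treatment moved the atrophy programme at the messenger level. None of the 10 genes passed the test. In limma over all 8829 genes, 0% passed an adjusted p of 0.05 (smallest adjusted p = 0.741, Benjamini-Hochberg), and voom on the recovered reads also called 0. An unadjusted p under 0.05 was found for 3.53% of genes (312) and for 0 of the 10 members, a set too small to be told apart from that share. Every member had an adjusted p of 0.9999 (limma, Benjamini-Hochberg). Thymol minus control was below 0 for 8 members and above 0 for 2, against 4454 below and 4375 above for all genes. The median was -0.04 on the log2 scale against -0.00 for all genes, and all 10 intervals of 95% held 0. For Trim63, Foxo3, Mstn and Ctsl the sign changed when certain single mice were left out. The widest bounds over the members were a fold of 0.69 for Foxo1 and of 1.37 for Acvr2b.

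**Figure D2:**
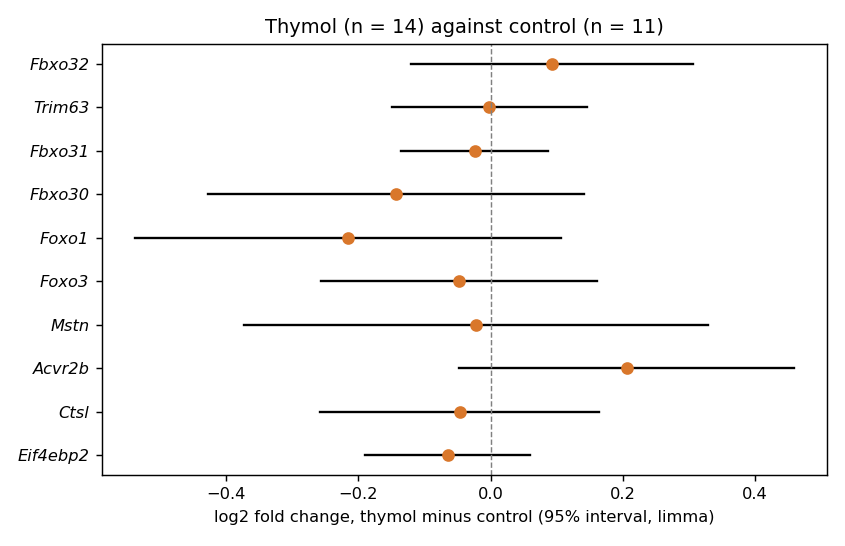
Log2 fold change of each gene (horizontal axis), thymol (n = 14) minus control (n = 11), with the 95% interval from limma as a line and the estimate as a point. All 10 intervals cross 0; Acvr2b lies farthest to the right (0.21) and Foxo1 farthest to the left (-0.22).

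Trim63 encodes MuRF1, the ligase that ubiquitinates myosin heavy chain and other thick filament proteins. The gene lies at chr4:134315120-134329629 on the plus strand (GRCm38, GENCODE M21). The 250 bases before its RefSeq start site, chr4:134314870-134315119 on GRCm38.p6, are shown because the window carries a FoxO core motif directly beside a glucocorticoid half-site, the pair of inputs that the background names for this gene. Capitals mark both, TGTTCT from base 51 to 56 and TGTTTAC from base 57 to 63 counted from the 5′ end of the window.
Trim63: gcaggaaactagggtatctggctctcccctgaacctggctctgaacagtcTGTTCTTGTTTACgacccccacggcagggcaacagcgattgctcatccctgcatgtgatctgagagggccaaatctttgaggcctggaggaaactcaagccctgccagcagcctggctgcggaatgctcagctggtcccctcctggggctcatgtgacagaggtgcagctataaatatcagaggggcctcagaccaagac
The FoxO core, searched as GTAAACA on both strands, was found in 3.65% of the 32851 promoter windows of 300 bases (250 before and 50 after the start site), and among the windows of the 9 members that had one it was found in that of Trim63 alone. The half-site AGAACA, on either strand, was in 18.97% of all windows and, of the 9, in that of Trim63. Fbxo32 had no window in the table. A match describes letters only.

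In control mice the log2 CPM of Trim63 had a lowest value of 7.69, a median of 7.91 and a highest of 8.48, and in thymol mice 7.50, 7.96 and 8.15. The 2 ranges overlapped almost wholly, with 13 of 14 thymol mice inside the range of the controls and control 19 alone above all others. Means were 7.94 ± 0.20 (SD, n = 11) and 7.94 ± 0.17 (SD, n = 14), a log2 difference of -0.00 with an interval from -0.15 to 0.15 (limma p = 0.980). With its SE of 0.07, Trim63 was among the members measured most precisely.

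Fbxo32 encodes atrogin-1, the F-box protein that brings MyoD and the initiation factor eIF3f to the SCF ligase. It lies at chr15:58175879-58214932 on the minus strand, where Gm15943 overlaps it on the other strand. The control mice had a lowest value of 7.93 log2 CPM, a median of 8.48 and a highest of 9.09, and the thymol mice 8.27, 8.66 and 8.96. All 14 thymol mice fell inside the range of the controls, which was the wider one at both ends. The log2 difference was 0.09 (SE 0.10, interval from -0.12 to 0.31, p = 0.379), and it ranged from 0.03 without control 18, the lowest control, to 0.15 without control 19, the highest.

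Fbxo30, the MUSA1 ligase that BMP signalling restrains, lies at chr10:11281330-11298052 on the plus strand. Its lowest, median and highest values were 1.95, 2.68 and 3.31 in control and 1.81, 2.64 and 2.92 in thymol. The groups overlapped, and 13 of 14 thymol mice were inside the control range. The difference of -0.14 (SE 0.14, p = 0.313) was -0.08 without thymol 11, the lowest mouse.

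Fbxo31, whose product targets cyclin D1 and other proteins, lies at chr8:121549440-121578806 on the minus strand, where Gm20388 overlaps it on the other strand. Values ran from 6.03 over a median of 6.22 to 6.26 in control and from 5.93 over 6.13 to 6.41 in thymol. The control range was so narrow that 7 of 14 thymol mice lay inside it and the others on both sides. Means did not differ detectably (-0.02, SE 0.05, p = 0.657), and the SD was 0.08 in control and 0.14 in thymol.

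Of 27 atrophy ubiquitin ligases in the table, these 4 included, 0 passed the adjusted threshold, 11 lay above 0 and 16 below, and the median was -0.01. Stub1, which encodes the chaperone-linked ligase CHIP, had the smallest p of the list (log2 difference 0.10, SE 0.05, unadjusted p = 0.0367), and Fbxo40, a muscle-restricted F-box gene, the next (0.08, SE 0.06, p = 0.180). Among 25 genes of the SCF core and ubiquitin supply, 0 were called, with a median of 0.00, and Ube2j2, a ubiquitin-conjugating enzyme of the endoplasmic reticulum, had the smallest p (-0.21, SE 0.09, p = 0.0286). The 24 measured sarcomere proteins of the MuRF1 substrate list had a median of -0.00 with 12 above and 12 below 0.

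Foxo1, a FoxO factor that fasting and glucocorticoids raise in muscle, lies at chr3:52268336-52353221 on the plus strand, with Gm38034 on the same strand and Gm20402 on the other. In control mice it had a lowest value of 4.35, a median of 4.87 and a highest of 6.31, and in thymol mice 4.19, 4.80 and 5.17. Control 19 stood far above every thymol mouse, and 12 of 14 thymol mice were inside the control range. Means of 4.99 ± 0.55 (SD, n = 11) and 4.78 ± 0.31 (SD, n = 14) gave the lowest estimate of the 10, -0.22 (SE 0.16, interval from -0.54 to 0.11, p = 0.182), and without control 19 it was -0.08 (p = 0.509).

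Foxo3, the FoxO factor that also drives autophagy genes, lies at chr10:42181841-42276755 on the minus strand. It ranged from 3.64 over a median of 4.0 to 4.59 in control and from 3.80 over 4.0 to 4.31 in thymol. All 14 thymol mice were inside the control range. The difference was -0.05 (SE 0.10, p = 0.639), and it changed sign to 0.00 without control 19.

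Around these factors, 29 FoxO factors and regulators had 0 calls and a median of -0.05, with Irs2, the insulin receptor substrate that FoxO itself induces, at -0.32 (SE 0.20, p = 0.113). The 49 FoxO target genes had 24 above and 25 below 0, a median of -0.00 and 0 calls. Eif4ebp1, which encodes 4E-BP1, had the smallest p there (-0.23, SE 0.11, unadjusted p = 0.0475), and Sesn1, a stress-induced inhibitor of mTORC1, the next (-0.39, SE 0.19, p = 0.0549). Of 24 measured glucocorticoid-responsive genes, a list that holds 4 of the members, 21 lay below 0 and 3 above, with a median of -0.12 and 0 calls. Control 19 stood apart in the summed level of this list, with 3892 CPM against 2429 CPM in the next mouse, thymol 6. How far control 19 alone sets these signs and this median was not tested. The smallest p in that list was that of Cebpb, a transcription factor of the acute stress response (-0.30, SE 0.15, p = 0.0511), and Cish, a suppressor of cytokine signalling, had -0.59 (SE 0.41, p = 0.160).

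Mstn encodes myostatin and lies at chr1:53061640-53068079 on the plus strand. The 250 bases before its start site, chr1:53061390-53061639 on GRCm38.p6, are shown for comparison with Trim63: they held neither the FoxO core nor the glucocorticoid half-site but 1 Smad motif, CAGACA, in capitals at bases 131 to 136.
Mstn: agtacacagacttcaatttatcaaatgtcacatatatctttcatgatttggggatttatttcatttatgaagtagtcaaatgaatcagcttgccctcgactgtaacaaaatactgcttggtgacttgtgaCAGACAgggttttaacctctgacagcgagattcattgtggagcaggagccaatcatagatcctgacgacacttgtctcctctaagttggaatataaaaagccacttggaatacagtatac
This Smad motif, on either strand, was in 21.04% of all windows and, of the 9 members with a window, also in that of Eif4ebp2. The palindrome GTCTAGAC was in 0.213% of all windows and in none of the 9.

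The log2 CPM of Mstn in control mice went from 4.16 over a median of 4.84 to 5.60, and in thymol mice from 3.68 over 5.0 to 5.37. The groups overlapped over nearly the whole range, and thymol 6 alone lay below the controls. Means of 4.88 ± 0.46 (SD, n = 11) and 4.86 ± 0.48 (SD, n = 14) differed by -0.02 (SE 0.17, interval from -0.37 to 0.33, p = 0.899), and without thymol 6 the difference was 0.07. 

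Acvr2b, the type II receptor for myostatin and activins, lies at chr9:119402118-119434995 on the plus strand, overlapped on the other strand by Gm47320. Control mice ran from 3.11 over a median of 4.25 to 4.60 and thymol mice from 4.02 over 4.37 to 4.71. Of the thymol mice 12 of 14 were inside the control range, and the low end of that range was set by control 31. The estimate of 0.21 (SE 0.12, interval from -0.05 to 0.46) had the smallest unadjusted p of the 10 (0.108) and fell to 0.10 (p = 0.311) without control 31.

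Among 28 myostatin and activin signalling genes, 13 lay above and 15 below 0, with a median of -0.00 and 0 calls. Map3k7, the kinase TAK1, had the smallest p (0.12, SE 0.07, p = 0.0893), followed by Acvr2b itself. Of 14 measured BMP signalling genes, 0 were called, with a median of -0.03, and the ligand Bmp6 was at 0.33 (SE 0.19, p = 0.0910).

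Ctsl encodes cathepsin L, a cysteine protease that rises in many forms of muscle wasting. It lies at chr13:64359337-64370890 on the minus strand, with Gm49230 on the same strand and Gm47123 on the other. Values ran from 4.88 over 5.33 to 5.87 in control and from 4.94 over 5.27 to 5.86 in thymol. All 14 thymol mice were inside the control range, and the difference was -0.05 (SE 0.10, p = 0.653). The 19 lysosomal proteases and regulators had 0 calls and a median of -0.01, and Cstb, a cathepsin inhibitor, had the smallest p (-0.15, SE 0.14, p = 0.279).

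Eif4ebp2 lies at chr10:61428491-61452661 on the minus strand, with Gm48086 on the same strand. Values ran from 7.54 over 7.88 to 8.05 in control and from 7.55 over 7.74 to 8.09 in thymol. Although 12 of 14 thymol mice lay below the median of the controls, 13 were inside the control range, and the difference was -0.06 (SE 0.06, interval from -0.19 to 0.06, p = 0.296). The list of 24 translation repressors and mTORC1 genes had 12 on each side of 0 and 0 calls, with Tsc2, a subunit of the complex that restrains mTORC1, at 0.27 (SE 0.12, unadjusted p = 0.0343). The strand used in counting is not given in the sources used here, so reads of a member and of a gene that overlaps it on the other strand cannot be told apart.

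The remaining lists held 0 calls as well. The 6 calpains and caspases had a median of -0.01, the 18 denervation response genes of -0.02, the 12 muscle fibre markers of -0.01, the 9 slow fibre markers of -0.24 (9 below 0), the 10 adipocyte markers of 0.02, the 13 leukocyte markers of -0.03, the 10 endothelial markers of -0.08, the 11 fibroblast markers of -0.11, the 6 nerve and Schwann markers of -0.27, the 4 satellite cell markers of 0.01 and the 5 blood markers of -0.14. The genes of 1 list share cells and regulators and are not independent of each other.

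The treated mice were also compared with the controls for how far single mice departed from their group. In 9 of the 10 genes the mean absolute deviation was smaller with thymol, but it was smaller in 5062 of the 8829 genes as well, and 0% of genes passed an adjusted p of 0.05 (limma on absolute deviations, smallest adjusted p = 0.317). At an unadjusted p of 0.05, 5.92% of all genes (523) passed, and of the members Foxo3 alone did (difference of -0.14, SE 0.07, unadjusted p = 0.0351, adjusted p = 0.787). Its SD was 0.33 in control and 0.17 in thymol. Foxo1 had a difference of -0.17 (SE 0.10, unadjusted p = 0.0949), and Fbxo31 was the member with the larger spread in thymol (0.05, SE 0.03, unadjusted p = 0.109).

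With no gene called between groups, the 25 mice served to ask which of the 10 genes rose and fell together. Group means were removed first, so that treatment contributed nothing to r. Of the 45 pairs, 10 had an absolute r of at least 0.4, which is 22.2%, against 7.48% of all 38971206 pairs of genes in the table. The median absolute r was 0.20 for the members and 0.16 for all pairs. With 100000 permutations of mice within groups (two-sided), 9 of the 45 had an unadjusted p under 0.05. None of the 9 passed an adjusted p of 0.05 when 1 member was fitted against the whole table (limma, Benjamini-Hochberg over 8828 genes).

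Myostatin and cathepsin L ran in opposite directions, with the largest absolute r of the 45 (r = -0.63, permutation p = 0.0012; rho = -0.55, p = 0.0069). It was -0.55 in control and -0.70 in thymol, and -0.44 without thymol 6 and control 19, the mice farthest from the median of Mstn. The adjusted p was 0.0526 in the fit on Mstn and 0.0574 in the fit on Ctsl (limma), just outside the threshold.

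Both FoxO genes rose with cathepsin L and fell with myostatin at an unadjusted p. Foxo1 rose with Ctsl (r = 0.55, permutation p = 0.0072, and rho = 0.52, p = 0.0120). It fell with Mstn (r = -0.54, permutation p = 0.0044, and rho = -0.48, p = 0.0187). Without control 19 and control 35 these r were 0.54 and -0.48. Over 8 alternative settings r ran from 0.41 to 0.68 for Foxo1 with Ctsl and from -0.60 to -0.43 for Foxo1 with Mstn. Each kept its result in 7 of the 8. Without the 3 mice farthest out, only 3 of the 45 pairs had a permutation p under 0.05. Foxo3 rose with Ctsl (r = 0.55, permutation p = 0.0089; rho = 0.59, p = 0.0050; 0.55 without control 19 and control 1) and fell with Mstn (r = -0.47, permutation p = 0.0179; rho = -0.43, p = 0.0391), where r was -0.29 without the same mice. Foxo1 and Foxo3 themselves were tied more loosely (r = 0.34, permutation p = 0.166; rho = 0.14, p = 0.540).

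Between the ligases the ties rested on few mice. Trim63 and Fbxo32, which are often used together as markers of atrophy, had r = 0.47 (permutation p = 0.0227; rho = 0.34, p = 0.0911), and r was 0.15 once control 19 and thymol 11 were left out. Control 19 was the highest mouse for both genes. Trim63 and Fbxo30 had r = 0.43 (permutation p = 0.0462; rho = 0.26, p = 0.206), which was -0.04 without the same pair of mice, and Fbxo30 and Fbxo31 had r = 0.40 (permutation p = 0.0318; rho = 0.35, p = 0.0784), which was 0.18 without thymol 11 and control 23. The tenth pair past 0.4, Fbxo32 with Fbxo30, had r = 0.41 and a permutation p of 0.0658 (rho = 0.39, p = 0.0690; 0.46 without control 18 and control 10).

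Fbxo32 and Eif4ebp2 rose together (r = 0.51, permutation p = 0.0158; rho = 0.50, p = 0.0145), with r = 0.71 in control and 0.20 in thymol, and r = 0.32 without control 18 and control 10. Neither ligase followed its textbook activator closely at the messenger level: r was 0.38 for Trim63 with Foxo1 (permutation p = 0.0874) and 0.13 for Fbxo32 with Foxo1 (p = 0.60), and 0.22 and 0.05 with Foxo3. Mstn and its receptor Acvr2b had r = 0.14 (permutation p = 0.511). FoxO activity is set by phosphorylation and location as well as by the amount of messenger, and neither was measured here.

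The difference between the groups in r was tested for each of the 45 pairs by permuting group labels over the centred mice. The smallest p was that of Fbxo30 and Mstn (r = -0.75 in control and 0.11 in thymol, permutation p = 0.0360), 1 of 45 under 0.05. For the 9 pairs above p ran from 0.130 to 0.969.

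**Figure D3:**
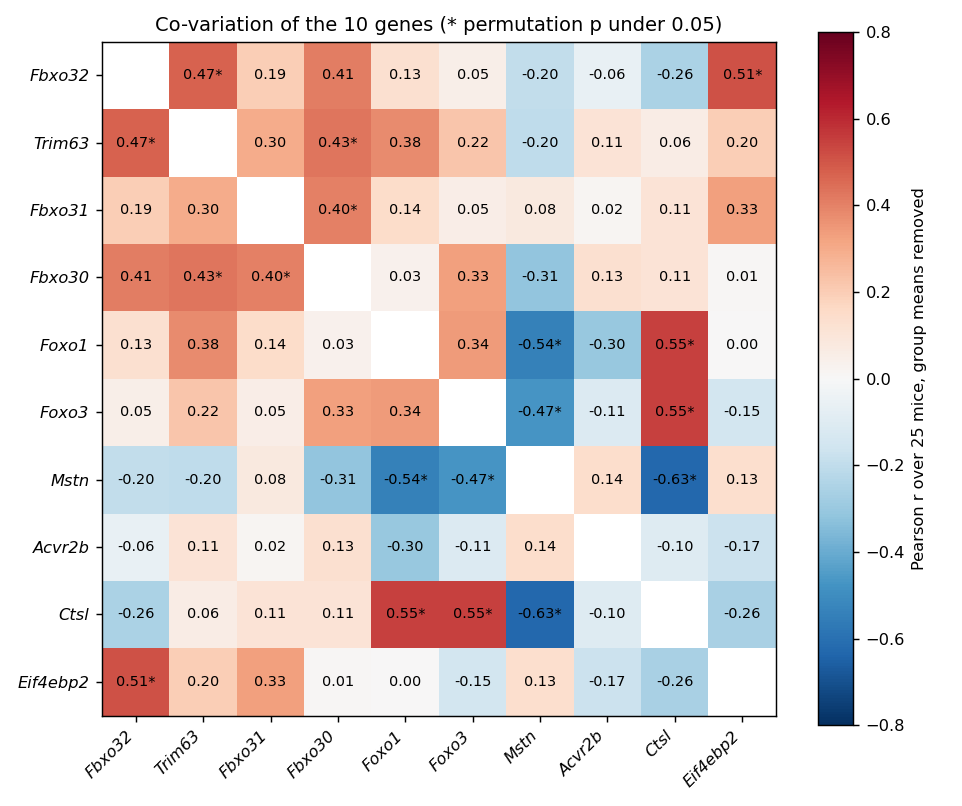
Pearson r over 25 mice, after removal of group means, for each pair of the 10 genes, with rows and columns as genes, colour and number as r, and an asterisk at a permutation p under 0.05. Foxo1, Foxo3 and Ctsl form positive pairs and each is negative with Mstn; the row of Acvr2b holds no asterisk.

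Each member was then set against every other gene of the table, to see which genes went with it from mouse to mouse. Mstn was followed by 98 genes at an adjusted p of 0.05 (limma with treatment as covariate, Benjamini-Hochberg over 8828 genes, 1.11%), Fbxo32 by 84 (0.952%), Ctsl by 26 (0.295%), Foxo1 by 22 (0.249%) and Eif4ebp2 by 11 (0.125%). Trim63, Foxo3, Fbxo30, Fbxo31 and Acvr2b were followed by 0, although 688, 436, 365, 356 and 373 genes respectively had an unadjusted p under 0.05 in limma. Mstn and Ctsl shared 4 called genes (Kcnc1, Lrrc20, Me1 and Tmem233). These were 4.08% of the Mstn list, against 0.295% of all genes called with Ctsl. They were 15.4% of the Ctsl list, against 1.11% of all genes called with Mstn. Fbxo32 and Eif4ebp2 shared 2, which were 2.38% and 18.2% of their lists, against 0.125% and 0.952% of all genes. Foxo1 and Mstn shared 1, Foxo1 and Ctsl 1, and the remaining pairs of lists 0. The overlaps were not tested. Mstn with Ctsl (r = -0.63) and Fbxo32 with Eif4ebp2 (r = 0.51) are themselves correlated, so genes they share are not separate evidence of a tie. The genes named below are from the 3 with the highest and the 3 with the lowest r for each member, so that their r is the extreme of 8828 and larger than it would be in other mice.

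Of the 98 genes called with Mstn 69 rose with it and 29 ran against it. Camk2a, a calcium-dependent kinase of the fibre, had the highest r (0.86, adjusted p = 0.000599, limma), and then came Ldha, the muscle form of lactate dehydrogenase (0.83, adjusted p = 0.00149, limma), and Slc16a3, the MCT4 exporter of lactate (0.82, adjusted p = 0.000763, limma). For these 3 genes r was 0.81, 0.74 and 0.86 without thymol 6 and control 19. Glycolytic genes among the 69, picked out after their values were seen and counted against no list, were Tpi1 (r = 0.80), Eno3 (0.78), Pfkm (0.73) and Pkm (0.65). Against Mstn ran Tgm2, a transglutaminase (-0.73, adjusted p = 0.0162, limma), the mitochondrial aldehyde dehydrogenase Aldh2 (-0.73, adjusted p = 0.00741, limma) and Chrna1, the acetylcholine receptor subunit that spreads over denervated fibres (-0.72, adjusted p = 0.00863, limma). Follistatin (Fst), the antagonist that binds myostatin, was the one called gene of the 27 other myostatin and activin signalling genes (-0.61). It too was picked out after its value was seen.

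The fibre type markers moved with this contrast. All 9 slow fibre markers had a negative r with Mstn (median -0.50, against -0.01 for all genes), 1 of them called (Atp2a2), and the mean of the list had r = -0.51 (permutation p = 0.0141; rho = -0.60, p = 0.00225; -0.46 without thymol 6 and control 19, and -0.66 without control 18, control 19 and thymol 20). Of 12 muscle fibre markers 9 were positive with a median of 0.54. The mean of that list had a weaker r of 0.23, and 0.30 without control 18, control 19 and thymol 20. Denervation response genes leaned the other way (15 of 18 negative, median -0.28). With the mean of the slow fibre markers as a covariate, 5 genes in place of 98 followed Mstn. The summed slow fibre markers ran from 1898 to 10241 CPM in control and from 492 to 12265 CPM in thymol, and thymol 6, the mouse with the least Mstn, had the most. The count was 31 without thymol 30, 34 without thymol 6, 42 without control 23, 54 without thymol 9 and 58 without control 31, and 135 without the 3 mice named above.

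Atrogin-1 messenger was low where connective tissue messenger was high. The lowest r with Fbxo32 was that of Pcolce, an enhancer of procollagen processing (-0.83, adjusted p = 0.000405, limma), followed by Pi16, a marker of adventitial fibroblasts (-0.81, adjusted p = 0.000405, limma), and the collagen gene Col3a1 (-0.79, adjusted p = 0.000416, limma). Of 84 called genes 67 ran against Fbxo32 and 17 with it. All 11 fibroblast markers were negative, with a median r of -0.72 (-0.00 for all genes), and 8 of them were called (Col1a1, Col1a2, Col3a1, Dcn, Lum, Col6a1, Mfap5 and Pi16). With the mean of the list r was -0.81 (permutation p = 1e-05, the smallest that 100000 permutations can give; rho = -0.78, p = 2e-05), at -0.84 in control and -0.77 in thymol. It was -0.79 without control 18 and control 10, and -0.66 without control 18, control 19 and thymol 20. The list was chosen with earlier results of these data known and holds Pi16 and Col3a1. Its permutation p is therefore not independent of the single genes named above. Leukocyte markers also lay on the negative side (13 of 13, median -0.52), as did 16 of 19 lysosomal protease genes (median -0.36).

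On the positive side of Fbxo32 were Eepd1 (0.76, adjusted p = 0.00382, limma), the translation initiation factor Eif4b (0.72, adjusted p = 0.0244, limma) and the ESCRT component Vps37a (0.72, adjusted p = 0.0353, limma). The FoxO target genes had a median r of 0.09 with Fbxo32 and 0 of 48 called, and the mean of the list had r = 0.38 (permutation p = 0.119; rho = 0.22, p = 0.303). The number of genes called with Fbxo32 moved with the mice and covariates used. It was 12 without control 18, 44 without thymol 16, 127 without control 19, 145 without thymol 34 and 0 without control 18, control 19 and thymol 20. With the mean of the leukocyte markers or of the fibroblast markers as a covariate it was 0, and the fibroblast mean itself holds 8 of the called genes. The summed fibroblast markers ran from 1710 to 4981 CPM in control and from 1560 to 4118 CPM in thymol. Whether their share of the tissue sets the level of Fbxo32 per total RNA was not tested.

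Foxo1 went with genes that glucocorticoids induce. Glul, the glutamine synthetase of muscle, had r = 0.84 (permutation p = 1e-05, the smallest possible here; rho = 0.70, p = 0.00017; adjusted p = 7.13e-05, limma) and r = 0.80 without control 19 and control 35. Without control 18, control 19 and thymol 20 its r was 0.69. Within the groups r was 0.86 in control and 0.80 in thymol. The permutation p makes no allowance for the choice of Glul as the gene with the highest r. The cell junction gene Pkp4 (0.77) and the exchange factor gene Mcf2l (0.75) came next, and Asb10 (-0.77), Krt222 (-0.75) and Sec14l5 (-0.74) lay at the other end. Of 23 other glucocorticoid-responsive genes 20 were positive, with a median r of 0.53, and 6 of the 22 called genes were on that list (Zbtb16, Mt1, Cebpd, Ddit4, Sult1a1 and Glul). The mean of the list had r = 0.80 (permutation p = 0.0001; rho = 0.69, p = 0.00046), which was 0.66 without control 19 and control 35 and 0.57 without control 18, control 19 and thymol 20. This list too was chosen with earlier results of these data known, and it holds Glul and the other called genes just named. Its permutation p is therefore not independent of those single genes. The 49 FoxO target genes had a median r of 0.12 with Foxo1, and 1 of them was called (Ddit4). The mean of that list had r = 0.48 (permutation p = 0.0509; rho = 0.16, p = 0.450), which was 0.10 without control 19 and control 35. Ddit4 is on both lists, and called genes outside them, such as Depp1 (r = 0.66) and Cdkn1c (0.67), count for neither. The lists were not compared by a test. The median r of the glucocorticoid list was 0.34 with Foxo3, 0.33 with Trim63, 0.32 with Ctsl and 0.05 with Fbxo32, for which r with the mean of the list was -0.00. For Trim63 the mean of the list had r = 0.41 (permutation p = 0.0658; rho = 0.22, p = 0.280) and r = 0.12 without control 19 and thymol 11.

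This count rested on control 19. That mouse had the highest Foxo1 (6.31), the highest Glul (9.38 log2 CPM) and the most adipocyte messenger, and without it 0 genes were called with Foxo1. The count was 9 without thymol 24, 10 without control 27, 12 without control 18, 13 without control 15 and 13 without thymol 9, and it was 36 without thymol 7, 39 without thymol 3 and 39 without control 14. With the mean of the adipocyte markers as a covariate it was 4, and with the fibroblast markers 92. No label gives a time of day, a feeding state or a hormone level for the mice, so none of these was tested.

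**Figure D4:**
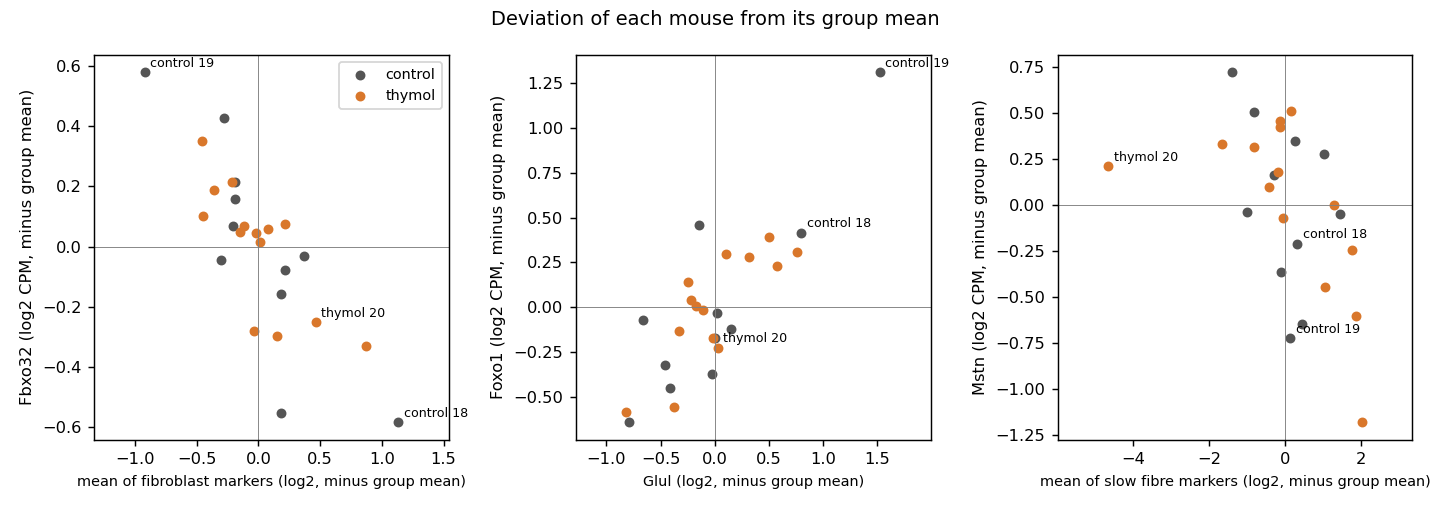
Deviation of each mouse from its group mean (control grey, thymol orange) for Fbxo32 against the mean of 11 fibroblast markers, Foxo1 against Glul and Mstn against the mean of 9 slow fibre markers, all in log2 units. Fbxo32 falls along the first axis (r = -0.81), Foxo1 rises along the second (r = 0.84) with control 19 at the upper end, and Mstn falls along the third (r = -0.51) with thymol 20 far to the left.

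Cathepsin L had its highest r with C4b, a complement component (0.73, adjusted p = 0.0276, limma). Mbd1 (0.73, adjusted p = 0.0508, limma) and Tor3a (0.72, adjusted p = 0.0367, limma) came next, and the lowest were those of Rcor3 (-0.75, adjusted p = 0.0518, limma), Lrrc20 (-0.75) and the ubiquitin ligase gene Wwp1 (-0.74). Mbd1 and Rcor3 were not called. All 13 leukocyte markers were positive (median 0.51) and 0 of them called, as were all 11 fibroblast markers (median 0.39), whereas its own class, the other lysosomal proteases, had a median r of 0.18 with 14 of 18 positive. This count was the least steady of the 5. Leaving out 1 mouse moved it by more than 1.5 times for 17 of the 25 mice, down to 1 without control 18, control 27 or thymol 9 and 2 without thymol 34, and up to 78 without thymol 22, 66 without control 19, 62 without thymol 28 and 58 without control 14. It was 5 without control 23, control 31 or thymol 11, 13 without control 10, 14 without control 15 or thymol 26, 16 without thymol 3, and 17 without control 1 or thymol 6. With the leukocyte or the adipocyte markers as a covariate it was 0, with the slow fibre markers 61, and without the 3 outermost mice 0.

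Of the 11 genes called with Eif4ebp2 9 rose with it and 2 ran against it. Synm, which encodes the intermediate filament protein synemin, had r = 0.81 (adjusted p = 0.00685, limma), the noncoding host gene Snhg8 0.79 (adjusted p = 0.00947, limma) and Cmya5, the costamere protein myospryn, 0.79 (adjusted p = 0.00947, limma). The lysosomal thioesterase gene Ppt1 (-0.74) and the Notch target Hes1 (-0.72) ran against it, and Hectd3 was at -0.69 without being called. Muscle fibre markers leaned to the positive side (10 of 12, median 0.38) and fibroblast markers to the negative (11 of 11, median -0.40). The count of 11 was 5 without control 31, 7 without thymol 16 or thymol 34 and 17 without thymol 21, and it was 0 with the fibroblast markers and 31 with the leukocyte markers as a covariate.

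The 5 genes without calls had no follower past the threshold in the full set of mice. Trim63 had its highest r with Pacs2 (0.75, adjusted p = 0.155, limma), Gstm2 (0.74) and Chrnb1 (0.73), which were 0.32, 0.34 and 0.11 without control 19 and thymol 11, and its lowest with Zmym1 (-0.71), Plod1 (-0.68) and Ppp4r1 (-0.68). Leaving out 1 mouse gave 3 calls without thymol 11, 2 without control 31, 2 without thymol 9 and 1 without thymol 30. The 24 sarcomere substrates of MuRF1 had a median r of 0.04 with Trim63. Of 48 other FoxO target genes 39 were positive with a median r of 0.16, and the mean of that list had r = 0.56 (permutation p = 0.0148; rho = 0.38, p = 0.0651), which was 0.25 without control 19 and thymol 11.

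Foxo3 had its highest r with Rnf185 (0.65), Tob2 (0.65) and Zfp36 (0.64), the last a gene whose product destabilises messenger RNA, and its lowest with 0610009L18Rik (-0.71), the phosphorylase kinase subunit Phkg1 (-0.70) and Cuedc1 (-0.68), with adjusted p of 0.261 or above in limma. Its count was 1 without control 32. Fbxo30 had Sin3b (0.71) and Rai2 (0.66) against Cep95 (-0.67), Ntan1 (-0.67) and Vps50 (-0.66), and Fbxo31 had Ufm1 (0.77), the ferritin gene Fth1 (0.71) and Brd2 (0.68) against Thoc6 (-0.68), Vipr2 (-0.63) and Atrip (-0.62). Acvr2b had Stx4a (0.66) and Anks3 (0.60) against Pld2 (-0.66), Npat (-0.63) and Rab6a (-0.62). In these last 3 the smallest adjusted p was 0.772, 0.931 and 0.997 (limma, Benjamini-Hochberg).

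**Figure D5:**
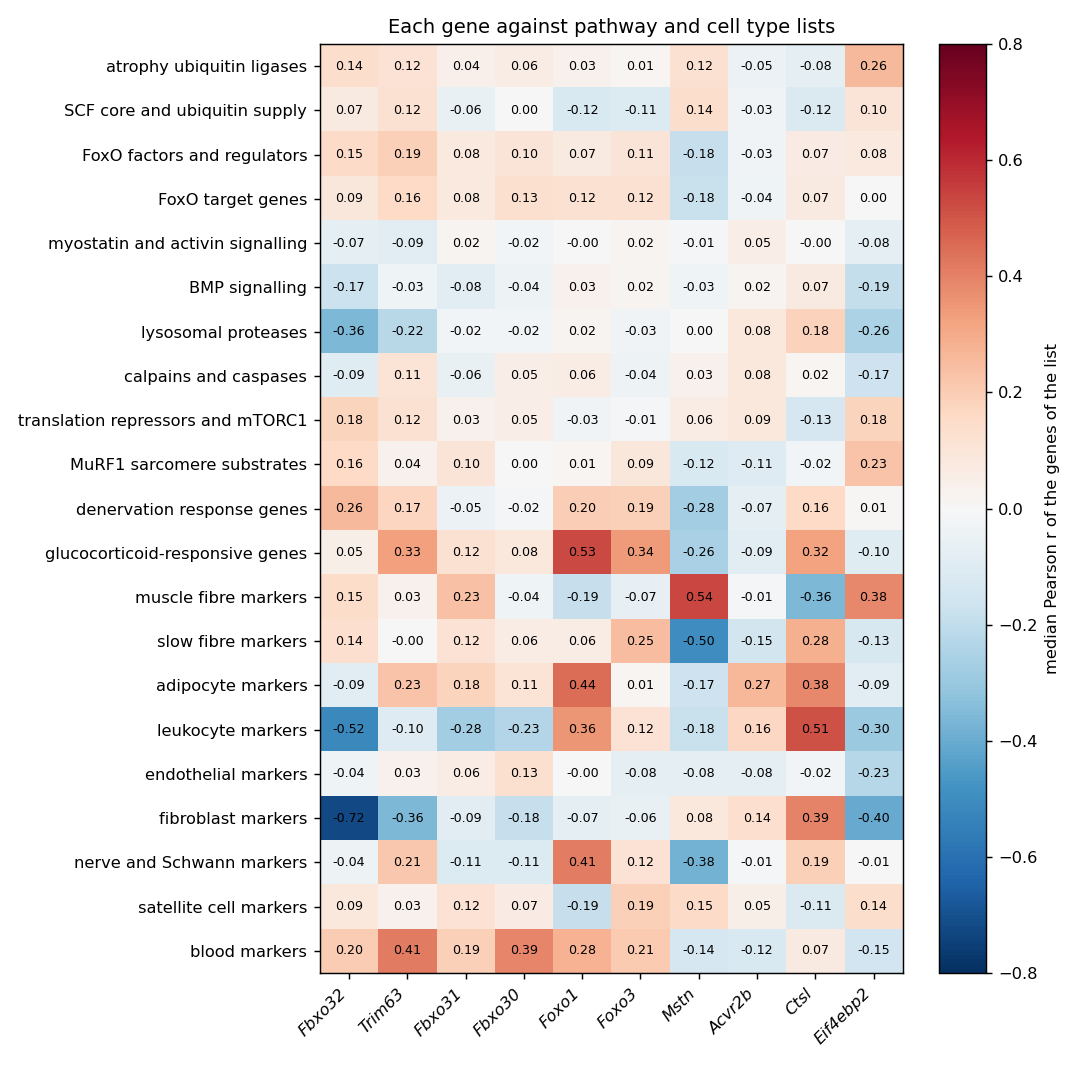
Median Pearson r over 25 mice between each of the 10 genes (columns) and the genes of each of 21 pathway and cell type lists (rows), as colour and number. The darkest cells are Fbxo32 with fibroblast markers (-0.72), Mstn with muscle fibre (0.54) and slow fibre (-0.50) markers, Foxo1 with glucocorticoid-responsive genes (0.53), and Fbxo32 (-0.52) and Ctsl (0.51) with leukocyte markers.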

How the data were processed

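Male SAMP8 mice on vehicle (n = 11) or thymol (n = 14) were assigned to groups by the treatment their labels give. The authors aligned QuantSeq reads to GRCm38 (STAR 2.5.3 and HTSeq 0.6.1 are named in the submitters' processing notes) and counted them by gene, removed genes with few reads, scaled libraries by TMM and deposited log2 CPM for 8829 genes. The size of 1 read in the deposited log2 values gave whole reads for each gene (100.0% whole within 0.05 reads). Depth was their sum, and the least number of reads of any gene in its sixth highest mouse was 32.

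All tests used the log2 values with no filter or pseudocount added: limma 3.58.1 (R 4.3.3) with empirical Bayes trend, two-sided, Benjamini-Hochberg over all genes, threshold 0.05, for treatment, for absolute deviations from group means scaled for group size, and for each gene on each member. Correlations used group-centred values and 100000 permutations within groups (numpy 2.4.6). Figures used matplotlib 3.10.9. The fits for treatment, for spread and for followers of a member, and the pair correlations, were first run on simulated data with known answers. The other steps were not simulated.

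Promoter windows were RefSeq's on GRCm38.p6. The members, the 21 lists and the tests were chosen with earlier results of these data known. Named genes were the members, for each member the 3 genes with the highest and the 3 with the lowest r, and in each list the 2 with the smallest treatment p, of which a few are not reported here. Nothing in the labels says that numbers pair mice. Over 9 same-numbered pairs across groups the mean r of deviations was -0.00, as for 145 other pairs. Alternatives were quantile normalization, median centring, the 75% of genes with the highest mean, 0.5 reads added, voom, no trend, robust moderation, sample weights (statmod 1.5.0), a replicate block, library number or marker means as covariates, and each mouse left out in turn.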

Additional observations from a re-analysis of the deposited data

How the results depend on the processing

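The number of genes called for thymol was 0 in limma under every alternative run, while unadjusted p fell under 0.05 for a number of genes that ran from 234 to 346 (287 to 348 with 1 mouse left out). The spread comparison stayed at 0 calls. Over 399 fold changes of the members under 40 settings, 0 passed an adjusted p of 0.05 or an unadjusted one, and 376 kept their direction. Trim63 turned to 0.0011 after median centring, to 0.025 with sample weights and to 0.039 with the replicate block by the first number of the label, and ran from -0.027 to 0.052 with 1 mouse left out. In the same runs Foxo3 went from -0.091 to 0.0039, Mstn from -0.094 to 0.069 and Ctsl from -0.093 to 0.0062. The replicate block called 0 genes and left 282 with an unadjusted p under 0.05. Without control 18, control 19 and thymol 20, an alternative chosen after seeing the data like the fibroblast covariate, Trim63 was 0.058, Foxo3 0.0089 and Ctsl 0.046, and 3 of 45 pairs in place of 9 had a permutation p under 0.05 (6 to 10 with 1 mouse left out).

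The counts of genes that followed a member moved most, and the cause was not tested. With library number as a covariate they were 2 for Trim63, 37 for Fbxo32, 60 for Mstn and 67 for Ctsl. Median centring gave 127 for Fbxo32, 3 for Ctsl and 32 for Eif4ebp2, and quantile normalization 11 for Foxo1 and 5 for Eif4ebp2. The slow fibre covariate gave 5 for Mstn and 61 for Ctsl, the leukocyte covariate 0 for Fbxo32, 0 for Ctsl and 31 for Eif4ebp2, the adipocyte covariate 4 for Foxo1 and 0 for Ctsl, and the fibroblast covariate 0 for Fbxo32, 92 for Foxo1 and 0 for Eif4ebp2. Without the 3 mice the counts were 0 for Fbxo32, Foxo1 and Ctsl. With 1 mouse left out they ran from 0 to 3 for Trim63, 12 to 145 for Fbxo32, 0 to 39 for Foxo1, 0 to 1 for Foxo3, 31 to 118 for Mstn, 1 to 78 for Ctsl and 5 to 17 for Eif4ebp2. At a median of 45 reads per mouse, Fbxo30 is the member for which depth limits the comparison most.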
